A study of Homo sapiens and Mus musculus with 12 samples.

Results

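The response of 9 antioxidant genes that the transcription factor NRF2 is known to switch on was followed through ponatinib treatment of 2 breast cancer cell lines. They were *HMOX1*, *NQO1*, *GCLC*, *GCLM*, *TXNRD1*, *SRXN1*, *SLC7A11*, *OSGIN1* and *ALDH3A1* in human cells, and the mouse genes of the same symbols. They were chosen by name as textbook NRF2 targets, with earlier results of these data known. This gives 18 genes of the 111406 gene identifiers in the tables of both species. After a filter on low counts, 16 of the 18 were tested, 9 of 9 in the mouse line and 7 of 9 in the human line, where *SRXN1* and *ALDH3A1* had too few reads.

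MDA-MB-231 is a human triple-negative breast cancer (TNBC) line, and 4T1 is a mouse mammary carcinoma line. Both are labelled wild type, and cells of each were kept for 24 h in DMEM with the solvent DMSO alone or with 1 μM ponatinib, a drug that inhibits several tyrosine kinases. RNA-seq was done on 3 libraries per group, 12 in all, to see how the drug changed the transcriptome of both lines. The labels do not say whether the 3 libraries of a group came from separate cultures, so p-values measure the spread between these libraries, which may be technical.

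NRF2, encoded by *NFE2L2*, is held low in resting cells because KEAP1 delivers it to the CUL3 ubiquitin ligase for degradation. When electrophiles or oxidants modify KEAP1, or when p62 (*SQSTM1*) sequesters it, NRF2 accumulates, pairs with a small MAF protein (MAFF, MAFG or MAFK) and binds antioxidant response elements, which BACH1 can occupy as a repressor. The targets make glutathione and thioredoxin systems, recycle quinones and break down heme, and some cancers use them to withstand oxidative stress and drugs.

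Each MDA-MB-231 library held 15012884 to 17301760 counts, and each 4T1 library 17800675 to 18951493. Across genes, log2 CPM of MDA-MB-231 libraries correlated at 0.991 to 0.996 (Pearson) inside a group and at 0.953 to 0.961 across treatments; for 4T1 these values were 0.994 to 0.996 and 0.957 to 0.965. CPM here are counts relative to the TMM-scaled library total, and a gene was called changed at an adjusted p under 0.05 by the quasi-likelihood test of edgeR, with Benjamini-Hochberg adjustment over all genes tested in the line. Ponatinib changed much of both transcriptomes: in MDA-MB-231 54.0% of 14610 tested genes were called, and in 4T1 59.0% of 13286. Over all tested genes the log2 fold change had a median of 0.02 in the human line and 0.00 in the mouse line, and scaling by total counts alone moved these medians to 0.11 and 0.12. In 4T1 the same change of scale turned 3925 higher and 3909 lower genes into 4854 and 2935. Against the label "epithelial cell", MDA-MB-231 had at most 1 read of *CDH1* (E-cadherin) summed over a group, with abundant *KRT8*, *KRT19* and *VIM*, while 4T1 expressed *Cdh1* and *Vim*. Some of these line markers moved with treatment: in MDA-MB-231 *KRT8* (log2 fold change 0.88), *EPCAM* (0.41) and *ERBB2* (0.81) rose and *VIM* fell (-0.66), and in 4T1 *Krt8* (0.24) and *Esr1* (0.89) rose and *Krt18* fell (-0.54). The leukocyte and endothelial markers *PTPRC*, *CD68*, *PECAM1* and *CDH5* summed to 0 to 8 reads per group in MDA-MB-231, and in 4T1 to 0 to 23 apart from *Cd68*, with 101 reads in DMSO and 88 in ponatinib. *ESR1* and *PGR*, low by definition in TNBC, had 2 to 3 and 27 to 30 reads per group in MDA-MB-231, and *Pgr* had 0 in 4T1. *Esr1* had 184 reads with DMSO and 362 with ponatinib in 4T1. The other receptor of that definition, *ERBB2*, was not near 0. It had 4548 reads with DMSO and 8593 with ponatinib in MDA-MB-231, and *Erbb2* had 4946 and 5481 in 4T1. The stromal markers moved too: *COL1A1* rose in both lines (log2 fold change 1.43 and 1.26). *PDGFRB* went from 21 to 464 reads in the human line and from 39 to 0 in the mouse line. Their part in the results below was not tested. In bulk RNA, fewer cells expressing a gene and less RNA per cell cannot be told apart.

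NRF2 is known to act through antioxidant response elements, and some of these promoters held their core letters near the start. Promoter windows of 300 bases, from 250 before the start of transcription to 50 from it on, were searched on both strands for the core TGACNNNGC and the related TGAGNNNGC, where N is any base; a TGAGTCAGC match also holds the AP-1 letters TGAGTCA. Human windows came from RefSeq (GRCh38.p14) and covered 6 of the 9 genes, with 2 starts for *TXNRD1*. Mouse windows were read from GRCm39 at the GENCODE vM39 canonical starts and covered all 9. TGACNNNGC stood in the windows of 2 of 6 human genes and 3 of 9 mouse genes, against 13.3% of 35116 human and 12.5% of 21770 mouse windows of the same length. Either form stood in 4 of 6 and 6 of 9, against 29.1% and 27.3% of all windows. A match is a description of the letters and not a bound site.

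The 5 sequences below are from the windows of *GCLM* and *TXNRD1*, called in opposite directions in the lines, and of *OSGIN1*, which fell in both. *HMOX1*, also called in opposite directions, and *SLC7A11*, whose response also differed between the lines, had no human window and are not printed. Each runs 5′ to 3′ from 150 bases before the start to 10 from it on, in the direction of the gene, and capitals mark a match on either strand.

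*GCLM* (human, chr1:93909421-93909580, minus strand): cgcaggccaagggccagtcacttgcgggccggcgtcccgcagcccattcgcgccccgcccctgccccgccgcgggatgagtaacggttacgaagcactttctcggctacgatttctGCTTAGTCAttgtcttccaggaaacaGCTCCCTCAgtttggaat

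*Gclm* (mouse, chr3:122038976-122039135, plus strand): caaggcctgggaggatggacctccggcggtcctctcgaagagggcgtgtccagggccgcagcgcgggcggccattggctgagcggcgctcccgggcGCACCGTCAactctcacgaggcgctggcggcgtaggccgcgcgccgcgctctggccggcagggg

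*TXNRD1* (human, chr12:104286882-104287041, plus strand): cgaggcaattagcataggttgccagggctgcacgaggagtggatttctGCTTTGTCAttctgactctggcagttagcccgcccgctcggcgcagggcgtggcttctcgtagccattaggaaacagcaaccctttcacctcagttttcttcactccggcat

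*Txnrd1* (mouse, chr10:82694863-82695022, plus strand): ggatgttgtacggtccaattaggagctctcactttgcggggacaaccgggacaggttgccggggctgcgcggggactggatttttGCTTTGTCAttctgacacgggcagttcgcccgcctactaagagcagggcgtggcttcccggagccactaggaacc

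*OSGIN1* (human, chr16:83953090-83953249, plus strand): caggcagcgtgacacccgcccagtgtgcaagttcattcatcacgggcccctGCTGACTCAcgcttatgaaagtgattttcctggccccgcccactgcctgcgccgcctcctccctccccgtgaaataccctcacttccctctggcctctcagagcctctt

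In these windows the core read TGACTAAGC in human *GCLM*, 34 to 26 bases before the start, and TGACGGTGC in mouse *Gclm*, 54 to 46 before it. *TXNRD1* read TGACAAAGC in both species, 102 to 94 bases before the downstream human start and 65 to 57 before the mouse start. *OSGIN1* read TGAGTCAGC in both species, 99 to 91 bases before the human start and 70 to 62 before the mouse start. No match stood in the windows of human *GCLC* and *SRXN1* or mouse *Gclc*, *Nqo1* and *Aldh3a1*. Human *HMOX1*, *SLC7A11* and *ALDH3A1* were not searched.

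**Figure D1:**
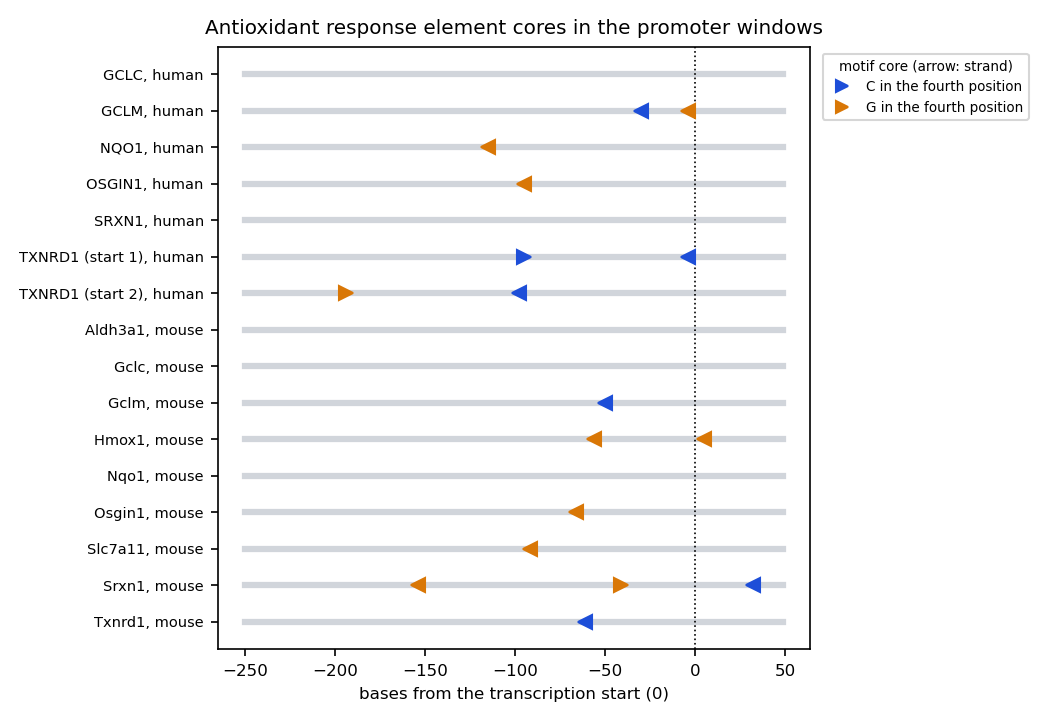
Matches to the antioxidant response element core in the promoter windows of the NRF2 target genes, by distance in bases from the transcription start (0, dotted line). Grey bars are the searched windows, blue arrows TGACNNNGC, orange arrows TGAGNNNGC, and the arrow points along the strand that reads the motif; of the 16 windows shown, 11 hold at least 1 match.

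In MDA-MB-231, 3 of the 7 tested genes rose with ponatinib (*HMOX1*, *NQO1* and *TXNRD1*), 2 fell (*GCLM* and *OSGIN1*) and 2 were not called (*GCLC* and *SLC7A11*). Of all tested genes, 27.2% rose and 26.8% fell. Without DMSO replicate 3 or ponatinib replicate 2, 1 of the 7 was called higher. In 4T1, 4 of 9 rose (*Nqo1*, *Gclc*, *Gclm* and *Aldh3a1*), 4 fell (*Hmox1*, *Txnrd1*, *Slc7a11* and *Osgin1*) and *Srxn1* was not called, beside 29.5% of all tested genes higher and 29.4% lower. The median log2 fold change over the tested genes of the set was 0.18 for MDA-MB-231 and -0.17 for 4T1. The set therefore did not move one way in either line, and the largest single response was that of *Aldh3a1* in 4T1. The CPM of the 2 treatment groups did not overlap for 4 of 7 genes in MDA-MB-231 (60.4% of all tested genes) and for 9 of 9 in 4T1 (63.4%).

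**Figure D2:**
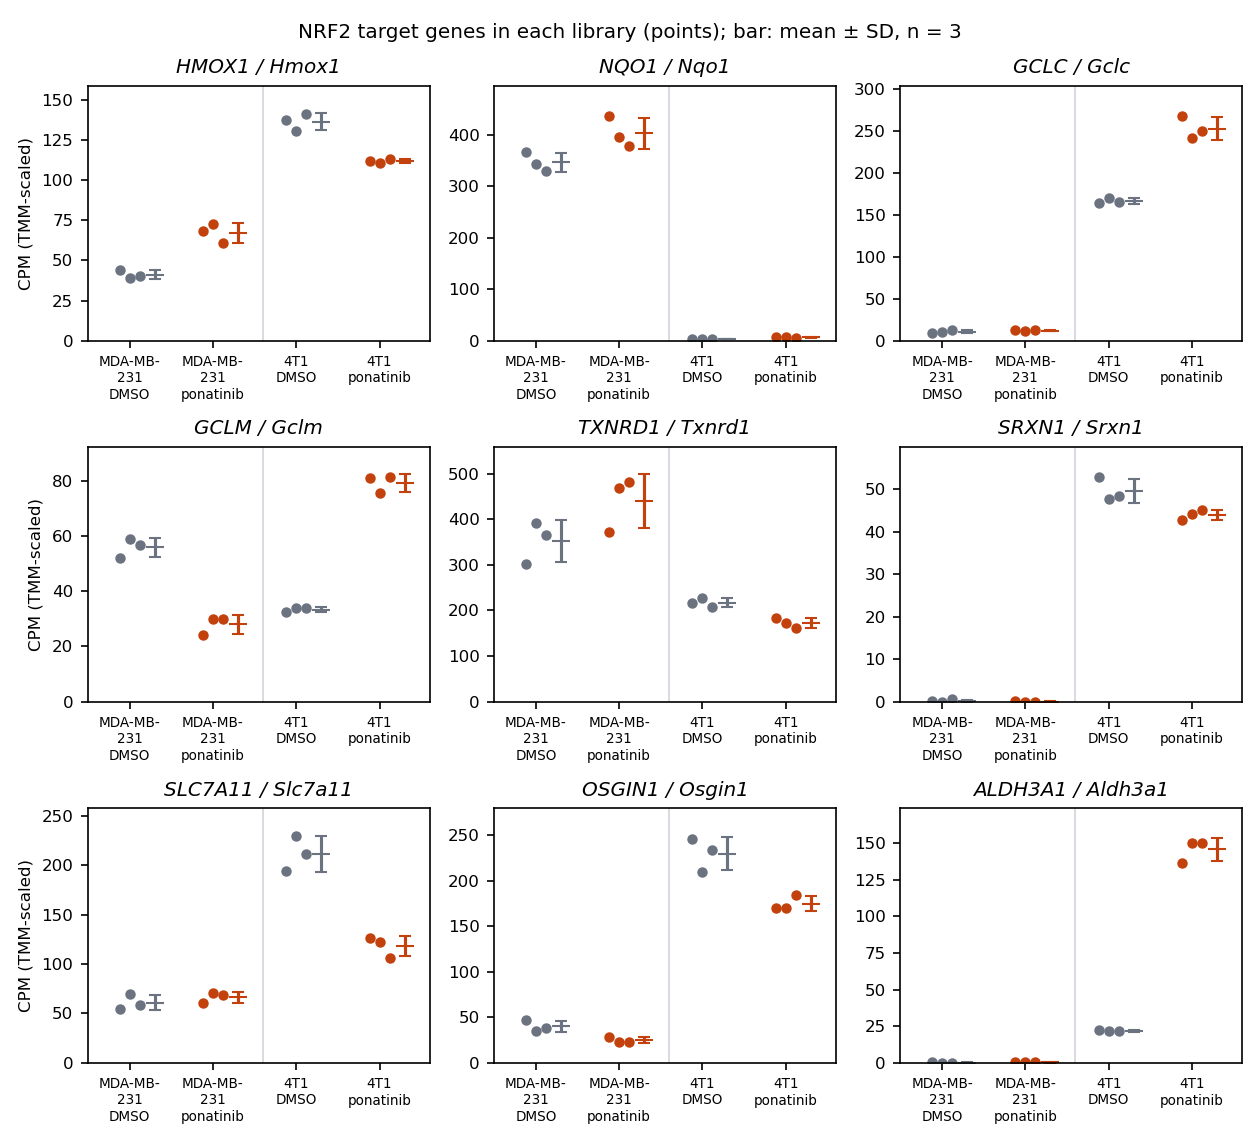
CPM of each NRF2 target gene in every library (points), with the mean and SD of the 3 libraries per group (bars); each panel has its own axis from 0. *GCLM* fell from 55.9 to 28.0 CPM in the human line and rose from 33.3 to 79.2 in the mouse line, while *ALDH3A1* lay near 0 in MDA-MB-231 and not in 4T1; few reads were assigned to human *SRXN1*, which lies within another gene.

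Per kilobase of exon, the order of the levels differed between the lines. In MDA-MB-231 with DMSO, *NQO1* was highest at 116 ± 6.37 RPKM (SD, n = 3), followed by *TXNRD1* at 52.6 ± 6.82, *HMOX1* at 17.8 ± 1.19 and *GCLM* at 10.3 ± 0.625. *OSGIN1* at 7.16 ± 1.13 and *SLC7A11* at 6.29 ± 0.798 came next and did not differ beyond their spread, and *GCLC* followed at 1.23 ± 0.196. *ALDH3A1* came last at 0.0228 RPKM, and *SRXN1* is left out of this order because the counting of reads shared with an overlapping gene is not given in the sources used here. In 4T1 with DMSO the top was *Hmox1* at 77.5 ± 3 RPKM, then *Osgin1* at 48.4 ± 3.82, *Txnrd1* at 30.6 ± 1.46, *Gclc* at 26.6 ± 0.516 and *Slc7a11* at 13.6 ± 1.17. *Aldh3a1* at 9.17 ± 0.178, *Srxn1* at 5.29 ± 0.298, *Gclm* at 4.19 ± 0.111 and *Nqo1* at 1.26 ± 0.148 closed the list. *NQO1* was thus the first of the ordered genes in the human line and the last of the 9 in the mouse line. After ponatinib *Aldh3a1* stood at 61.8 ± 3.31 RPKM, next to *Hmox1* at 63.6 ± 0.682, and these neighbours did not differ beyond their spread. In MDA-MB-231 *GCLM* dropped below *SLC7A11*, with 5.16 ± 0.609 against 6.89 ± 0.575 RPKM. Levels of the 2 species came from separate gene models and are set side by side without a test.

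Glutathione synthesis gave the clearest contrast between the lines. *GCLM* encodes the modifier subunit of glutamate-cysteine ligase, the rate-limiting enzyme of glutathione synthesis (hg38 chr1:93885199-93909456; mouse GRCm39 chr3:122039126-122065061). In MDA-MB-231 its CPM were 52.2, 58.9 and 56.6 with DMSO and 24.2, 29.8 and 29.9 with ponatinib. Every treated library lay below every control library, and *GCLM* fell by 1.00 on the log2 scale (SE 0.10, adjusted p = 9.62e-06 by edgeR). In 4T1 *Gclm* had 32.3, 33.9 and 33.9 CPM with DMSO and 80.9, 75.4 and 81.3 with ponatinib. Here the treated libraries were all above the controls, and the mean rose 2.38-fold (log2 fold change 1.25, SE 0.08, adjusted p = 8.72e-09 by edgeR). The difference between the lines was 2.17 on the log2 scale (SE 0.13, adjusted p = 2.81e-10, edgeR's test of the line by treatment interaction over 12491 genes with a shared symbol, of which 41.9% were called).

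*GCLC*, the catalytic subunit of the same ligase (hg38 chr6:53497341-53616970; mouse chr9:77661797-77701770), did not follow the modifier subunit in MDA-MB-231. Its CPM there were 8.89, 10.8 and 12.3 with DMSO and 12.6, 11.5 and 12.2 with ponatinib, so the groups overlapped (log2 fold change 0.18, SE 0.14, adjusted p = 0.284 by edgeR). In 4T1 *Gclc* had 163.9, 170.2 and 165.8 CPM with DMSO and 268, 241 and 249.7 with ponatinib. All treated libraries lay above the controls, and *Gclc* rose 1.52-fold (log2 fold change 0.60, SE 0.07, adjusted p = 5.57e-06 by edgeR). The difference between the lines was 0.35 and just missed the threshold (adjusted p = 0.0523 by edgeR), and with the replicate number as a block it passed (0.35, adjusted p = 0.0205). Of the pair, *GCLM* alone was called in MDA-MB-231, while both were called higher in 4T1; the ratio of the subunits was not tested.

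*SLC7A11* encodes xCT, which imports cystine, the source of cysteine for glutathione (hg38 chr4:138164097-138242349; mouse chr3:49846975-50398070). In MDA-MB-231 its CPM were 54.0, 69.1 and 58.9 with DMSO and 60.1, 70.5 and 68.7 with ponatinib. These groups overlapped, and the gene was not called (log2 fold change 0.13, SE 0.10, adjusted p = 0.311 by edgeR); with the replicate block the same log2 fold change of 0.13 had an adjusted p of 0.043. In 4T1 *Slc7a11* fell, from 193.8, 230.0 and 211 CPM with DMSO to 126.0, 122.5 and 106 with ponatinib. The groups lay well apart (log2 fold change -0.84, SE 0.09, adjusted p = 1.37e-06 by edgeR), and the response differed between the lines by -1.04 (SE 0.14, adjusted p = 7.64e-06 by edgeR). In 4T1 the transcript of the cystine importer thus fell while those of both ligase subunits rose.

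Among the enzymes that act on heme and quinones, *HMOX1* and *NQO1* responded differently. *HMOX1* encodes heme oxygenase-1, which degrades heme to biliverdin, iron and carbon monoxide (hg38 chr22:35380361-35394214). In MDA-MB-231 it had 44.1, 38.8 and 40.3 CPM with DMSO and 68.5, 72.6 and 60.5 with ponatinib. The treated libraries all lay above the controls, and *HMOX1* rose 1.63-fold (log2 fold change 0.71, SE 0.09, adjusted p = 6.62e-05 by edgeR). In 4T1 *Hmox1* had 137, 130.7 and 141 CPM with DMSO and 111.7, 110.7 and 113 with ponatinib. The groups did not overlap, and the gene fell by 0.29 on the log2 scale (SE 0.07, adjusted p = 0.00241 by edgeR). The difference between the lines was -1.07 (SE 0.12, adjusted p = 5.66e-07 by edgeR).

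*NQO1* encodes a quinone reductase that spares cells the redox cycling of quinones (hg38 chr16:69706996-69726668). It rose in both lines, from very different levels. In MDA-MB-231 its CPM were 366, 342 and 329 with DMSO and 436, 395 and 377 with ponatinib, without overlap. The rise was small (log2 fold change 0.22, SE 0.08, adjusted p = 0.0365 by edgeR) and did not pass when DMSO replicate 2 or 3 or ponatinib replicate 1 or 2 was left out, with values of 0.16 to 0.23 in those 4 fits and an adjusted p of up to 0.155. In 4T1 *Nqo1* had 3.91, 3.11 and 3.39 CPM with DMSO, from 56 to 69 reads per library, and 6.29, 7.34 and 6.13 with ponatinib. Every treated library lay above every control, a 1.90-fold rise (log2 fold change 0.92, SE 0.17, adjusted p = 0.000311 by edgeR). The rise was larger in 4T1 by 0.63 (SE 0.16, adjusted p = 0.00301 by edgeR).

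In the thioredoxin branch, *TXNRD1* was called in opposite directions in the lines. It encodes the cytosolic thioredoxin reductase, a selenoprotein that keeps thioredoxin reduced (hg38 chr12:104215779-104350307; mouse chr10:82669785-82733546). In MDA-MB-231 its CPM were 302.0, 390.9 and 365.0 with DMSO and 371, 468 and 481 with ponatinib, so the lowest treated library lay below the highest control. The gene was called higher (log2 fold change 0.32, SE 0.12, adjusted p = 0.0346 by edgeR), but not when DMSO replicate 1 or 3 or ponatinib replicate 2 or 3 was left out, where it was 0.21 to 0.34 with an adjusted p of up to 0.133. In 4T1 *Txnrd1* had 216, 228 and 207 CPM with DMSO and 184.0, 172 and 160.8 with ponatinib. The groups did not overlap, and it fell by 0.33 on the log2 scale (SE 0.08, adjusted p = 0.00158 by edgeR). The difference between the lines was -0.73 (SE 0.15, adjusted p = 0.000482 by edgeR). A ribosomal pseudogene within the span of the human gene, *RPL18AP3*, held 3080 to 4207 reads per library of its own.

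*SRXN1* encodes sulfiredoxin, which restores over-oxidized peroxiredoxins (mouse chr2:151947436-151957687). *Srxn1* had 52.9, 47.6 and 48.5 CPM with DMSO and 42.8, 44.2 and 45.1 with ponatinib in 4T1. The groups did not overlap, yet the difference missed the threshold (log2 fold change -0.17, SE 0.08, adjusted p = 0.08 by edgeR). In MDA-MB-231 *SRXN1* had 1, 0 and 9 reads with DMSO and 1, 0 and 0 with ponatinib. The human gene (hg38 chr20:646615-653200) lies within a readthrough gene, ENSG00000270299, on the same strand, which held 0 to 1 read per library, and how reads falling in both were counted is not given in the sources used here, so no level of *SRXN1* can be read from this line.

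*OSGIN1*, an oxidative stress-induced gene linked to growth inhibition and cell death, fell in both lines (hg38 chr16:83931311-83966332). In MDA-MB-231 it had 46.9, 34.8 and 37.7 CPM with DMSO and 28.7, 22.9 and 22.7 with ponatinib. The highest treated library lay below the lowest control (log2 fold change -0.68, SE 0.13, adjusted p = 0.000957 by edgeR). *MLYCD*, whose span overlaps that of *OSGIN1* on the same strand, held 77 to 162 reads per library. In 4T1 *Osgin1* had 245, 209.7 and 233 CPM with DMSO and 170.3, 169 and 184.6 with ponatinib. These groups did not overlap either (log2 fold change -0.39, SE 0.08, adjusted p = 0.000573 by edgeR). The difference between the lines was 0.22 and was not called (adjusted p = 0.278 by edgeR), while the replicate block gave the same 0.22 with an adjusted p of 0.0438.

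*ALDH3A1*, an aldehyde dehydrogenase that clears aldehydes from lipid peroxidation, had the largest fold change of the 16 tested genes (mouse chr11:61098363-61109247). In 4T1 *Aldh3a1* went from 22.1, 21.4 and 21.4 CPM with DMSO to 136.8, 150.1 and 150.4 with ponatinib. That is 385 to 391 reads per control library against 2675 to 2906 per treated library, a 6.74-fold rise with no overlap (log2 fold change 2.75, SE 0.08, adjusted p = 7.71e-12 by edgeR). In MDA-MB-231 the gene (hg38 chr17:19737984-19748943) had 4, 0 and 0 reads with DMSO and 3, 3 and 8 with ponatinib, which is too few to give a fold change.

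**Figure D3:**
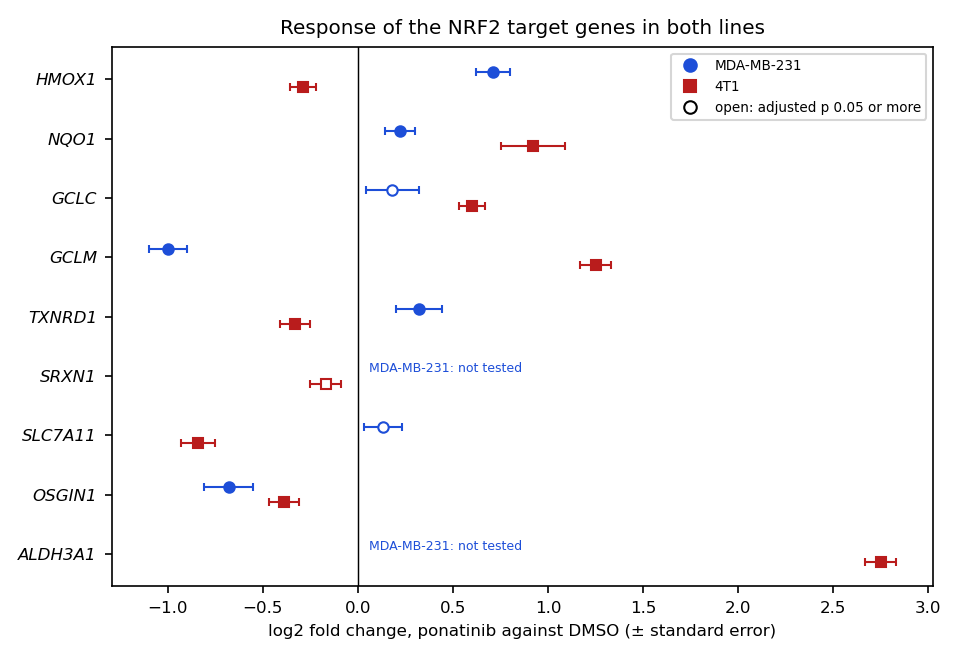
Log2 fold change of ponatinib against DMSO for each NRF2 target gene in MDA-MB-231 (blue circles) and 4T1 (red squares), with its standard error; open symbols had an adjusted p of 0.05 or more. *HMOX1* and *TXNRD1* lie right of 0 in MDA-MB-231 and left of it in 4T1, *GCLM* the other way round, and the mouse *ALDH3A1* symbol lies farthest out at 2.75.

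Of the 7 genes tested in both lines, 5 were called in both. Of these, *NQO1* rose in both, *OSGIN1* fell in both, *HMOX1* and *TXNRD1* rose in MDA-MB-231 and fell in 4T1, and *GCLM* did the reverse. The interaction test called 5 of 9 genes (*GCLM*, *HMOX1*, *SLC7A11*, *TXNRD1* and *NQO1*) beside the 41.9% of all shared genes. With the replicate block it called 8 of 9, adding *GCLC*, *OSGIN1* and *SRXN1*, but calls became more frequent over all genes too. Of 12491 genes, the block called 3115 with a higher and 3367 with a lower response in 4T1, against 5238 in the main fit. For *SRXN1* (2.80, adjusted p = 0.0765 by edgeR, or 2.87 and 0.0267 with the block) and *ALDH3A1* (1.06, adjusted p = 0.441) the difference rests on the few human reads given above. The directions of the 16 tested genes' own fold changes were the same under every scaling, filter and tool tried.

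NRF2 itself was not called at the transcript level. *NFE2L2* averaged 50.3 ± 7.76 CPM (SD, n = 3) with DMSO and 47.7 ± 6.86 with ponatinib in MDA-MB-231 (log2 fold change -0.08, SE 0.13, adjusted p = 0.64 by edgeR), and *Nfe2l2* 177.7 ± 9.28 and 170.1 ± 10.6 in 4T1 (-0.06, SE 0.08, adjusted p = 0.49), both values turning positive under total-count scaling. NRF2 is controlled mostly through protein stability, which RNA does not measure. Of 15 tested regulators in MDA-MB-231, 3 rose and 4 fell, beside 27.2% and 26.8% of all tested genes. Of 14 in 4T1, 2 rose (5 under total-count scaling) and 6 fell, beside 29.5% and 29.4%. The medians of the regulators were -0.12 and -0.17, beside 0.02 and 0.00 for all tested genes.

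Of the small MAF partners, *MAFF* fell in both lines. It dropped in MDA-MB-231 from 125 ± 9.09 to 14.7 ± 0.782 CPM (log2 fold change -3.09, adjusted p = 1.1e-09 by edgeR) and in 4T1 from 296.8 ± 15.8 to 138 ± 4.56 (-1.10, adjusted p = 1.42e-08). *MAFG* fell in MDA-MB-231, from 114.7 ± 5.20 to 71.6 ± 1.82 CPM (-0.68, adjusted p = 1.51e-05 by edgeR), and was not called in 4T1 (-0.13, adjusted p = 0.13). *MAFK* was not called in MDA-MB-231 (-0.08, adjusted p = 0.754 by edgeR) and fell in 4T1 from 150.6 ± 13.1 to 112.5 ± 9.93 CPM (-0.42, adjusted p = 0.00069). Between the lines, the responses of *MAFF* differed by 1.92 (adjusted p = 2.35e-10, interaction test in edgeR) and those of *MAFG* by 0.48 (adjusted p = 0.000741). *MAFF* and *MAFG* encode proteins without a transactivation domain, which pair with NRF2 or BACH1 or with each other.

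Repressors and degradation factors of NRF2 moved both ways in each line, with *KEAP1* and *BACH1* called in 4T1 alone. *Keap1* rose in 4T1 from 39.8 ± 3.01 to 60.5 ± 6.61 CPM (log2 fold change 0.61, adjusted p = 7.85e-05 by edgeR), while *KEAP1* in MDA-MB-231 stayed at 102 CPM in both groups (0.00, SE 0.08, adjusted p = 0.985). *Bach1* fell in 4T1 from 29.4 ± 2.93 to 20.4 ± 3.77 CPM (-0.52, adjusted p = 0.00313 by edgeR) and was -0.02 in MDA-MB-231 (SE 0.15, adjusted p = 0.937). The lines differed by 0.53 for *KEAP1* (adjusted p = 0.00209 by edgeR) and by -0.58 for *BACH1* (adjusted p = 0.031), the latter lost in 9 of 19 alternatives. *SQSTM1*, itself an NRF2 target that captures KEAP1, rose in MDA-MB-231 from 496 ± 19 to 618 ± 34.4 CPM (0.32, adjusted p = 0.00359 by edgeR) and fell in 4T1 from 3173 ± 175 to 1916 ± 27.1 (-0.73, adjusted p = 2.13e-06), a difference of -1.12 (adjusted p = 2.13e-07). The ligase subunit *CUL3* fell in both lines (-0.49 and -0.50; adjusted p = 0.000562 and 0.00119 by edgeR). *SYVN1*, a ubiquitin ligase of the endoplasmic reticulum that can degrade NRF2, rose in MDA-MB-231 (0.36, adjusted p = 0.00179 by edgeR) and fell in 4T1 (-0.49, adjusted p = 0.000736). The remaining calls were the NRF2 relatives *NFE2L1* (0.53) and *NFE2L3* (-0.29) in MDA-MB-231 and *Btrc*, a KEAP1-independent degron receptor of NRF2, in 4T1 (0.62).

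**Figure D4:**
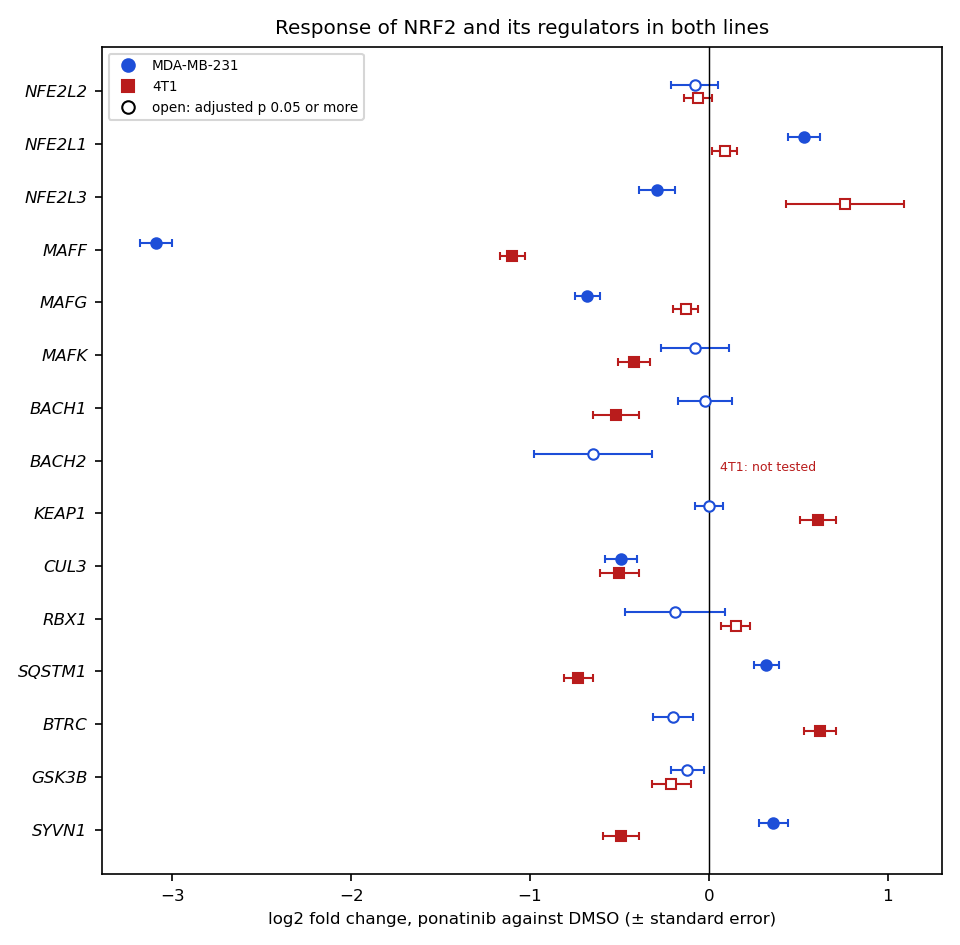
Log2 fold change of ponatinib against DMSO for *NFE2L2* and its partners, repressors and degradation factors in MDA-MB-231 (blue circles) and 4T1 (red squares), with its standard error; open symbols had an adjusted p of 0.05 or more. *NFE2L2* lies near 0 in both lines, *MAFF* is lowest at -3.09 in MDA-MB-231, and *SQSTM1* and *SYVN1* lie on opposite sides of 0 in the 2 lines.

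Other genes of these pathways were counted over 5 lists, which hold known NRF2 targets and also partner genes such as the constitutive *HMOX2*. Of 64 tested genes in MDA-MB-231, 32 rose and 10 fell (median 0.26, beside 0.02 for all tested genes), and of 61 in 4T1, 34 rose and 13 fell, or 7 under total-count scaling (median 0.31, beside 0.00). Higher calls made up more of these lists than of all tested genes (27.2% and 29.5%) in both lines. Lower calls made up 26.8% and 29.4% of all tested genes. Each count of a single list below, and of the ATF4 list, stands beside these shares for its line. The lists were chosen with earlier results of these data known, so these shares are descriptions and not a test.

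Enzymes that supply NADPH, the reductant on which both the glutathione and thioredoxin systems draw, were counted next. In MDA-MB-231, 7 of 8 rose and 0 fell, among them *IDH1* (59.1 to 164.4 CPM, log2 fold change 1.48), *H6PD* (1.11) and the transketolase *TKT* (0.79). In 4T1, 4 of 8 rose and 1 fell, with *Idh1* from 27.8 to 100.1 CPM (1.85), *H6pd* at 1.09, and *Pgd* and *Taldo1* at 0.49 each. Medians were 0.52 and 0.33.

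Glutathione enzymes other than the ligase divided in MDA-MB-231, where 7 of 16 rose and 3 fell (5 fell with the replicate block). *GGT1*, which cleaves extracellular glutathione, rose from 1.96 to 13.5 CPM (log2 fold change 2.78) and the microsomal transferase *MGST3* by 0.74, while *GSTO1* (-1.01) and *GGCT* (-0.89) fell. In 4T1, 8 of 15 rose and 2 fell (1 without ponatinib replicate 2 or 3 or under total-count scaling), led by *Mgst1* (15.4 to 68.5 CPM, 2.15), *Gsta4* (0.77), the glutathione synthetase *Gss* (0.75) and *Glrx* (0.70). With *Gclc* and *Gclm*, all 3 genes of the synthesis steps from cysteine on were therefore called higher in 4T1.

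Thioredoxin and peroxide genes went both ways. In MDA-MB-231, 3 of 12 rose (6 with the replicate block or total-count scaling, 5 without ponatinib replicate 3) and 4 fell: catalase, *CAT*, rose from 39.0 to 98.6 CPM (1.34) and *PRDX5* by 0.62, while thioredoxin itself, *TXN* (-0.52), and *PRDX3* (-0.43) fell. In 4T1, 5 of 14 rose and 6 fell (3 fell under total-count scaling), with *Cat* from 30.4 to 81.5 CPM (1.42), the superoxide dismutases *Sod1* (0.73) and *Sod2* (0.71) higher, and the thioredoxin inhibitor *Txnip* lower (-1.12). *TXNIP* was listed at 0 in all MDA-MB-231 libraries, and human *SOD2* was not analysed here.

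Heme and iron genes were higher in 10 of 12 cases and lower in 0 in 4T1 (median 0.46), although *Hmox1* itself fell there. The iron exporter *Slc40a1* rose from 4.53 to 26.1 CPM (2.53), the heme transporter *Slc48a1* by 1.16, the biliverdin reductase *Blvra* by 0.96 and *Alas1*, the first step of heme synthesis, by 0.52. In MDA-MB-231, 5 of 11 rose and 2 fell (median 0.22). The ferritin heavy chain *FTH1* rose from 459 to 991 CPM (1.11) and *BLVRB* by 0.58, whereas the constitutive heme oxygenase *HMOX2* (-0.88) and the transferrin receptor *TFRC* (-0.87) fell. Without DMSO replicate 2, 3 of this list rose in MDA-MB-231.

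Detoxification and efflux genes had the highest medians of the lists, 0.77 in MDA-MB-231 (10 of 17 higher and 1 lower, or 0 lower without any 1 DMSO library or ponatinib replicate 2 or 3) and 0.61 in 4T1 (7 of 12 higher and 4 lower, or 2 lower under total-count scaling). The conjugate exporter *ABCC3* rose in the human line from 1.81 to 17.7 CPM (3.29) and in the mouse line from 239 to 729.9 (1.61), and the epoxide hydrolase *EPHX1* rose by 1.69 and 1.63. The human aldo-keto reductases *AKR1C1* (2.94) and *AKR1C3* (1.76) rose in MDA-MB-231, with the limit that these near-identical paralogs may share reads. They had no entry in the mouse list, which held 13 genes against 18 in the human list, so the medians of the lines cover different genes. In 4T1 *Ptgr1* (1.69) and the exporter *Abcg2* (1.27) rose. The log2 fold changes of the genes named from these lists and from the ATF4 list had standard errors of 0.07 to 0.21, and the highest adjusted p among them was that of *PRDX3*, 0.00243 by edgeR.

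*SLC7A11*, like *CHAC1* and *DDIT4*, is also a target of ATF4, the transcription factor of the integrated stress response, so ATF4 and its targets were counted beside the NRF2 genes. In MDA-MB-231, 11 of 12 rose and 0 fell (median 0.58), with *DDIT4* from 11.0 to 192 CPM (4.13), *DDIT3* (1.5), *PHGDH* (1.13) and *CHAC1* (1.05). In 4T1, 1 of 12 rose and 10 fell (median -0.33), with *Atf3* (-0.94), *Cth* (-0.92), *Ddit4* (-0.75) and *Slc7a5* (-0.59). Of the 12, 9 were called higher in MDA-MB-231 and lower in 4T1, and the interaction test called 12 of 12, beside the 41.9% of the background. Whether the ATF4 genes bear on *SLC7A11* was not tested.

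**Figure D5:**
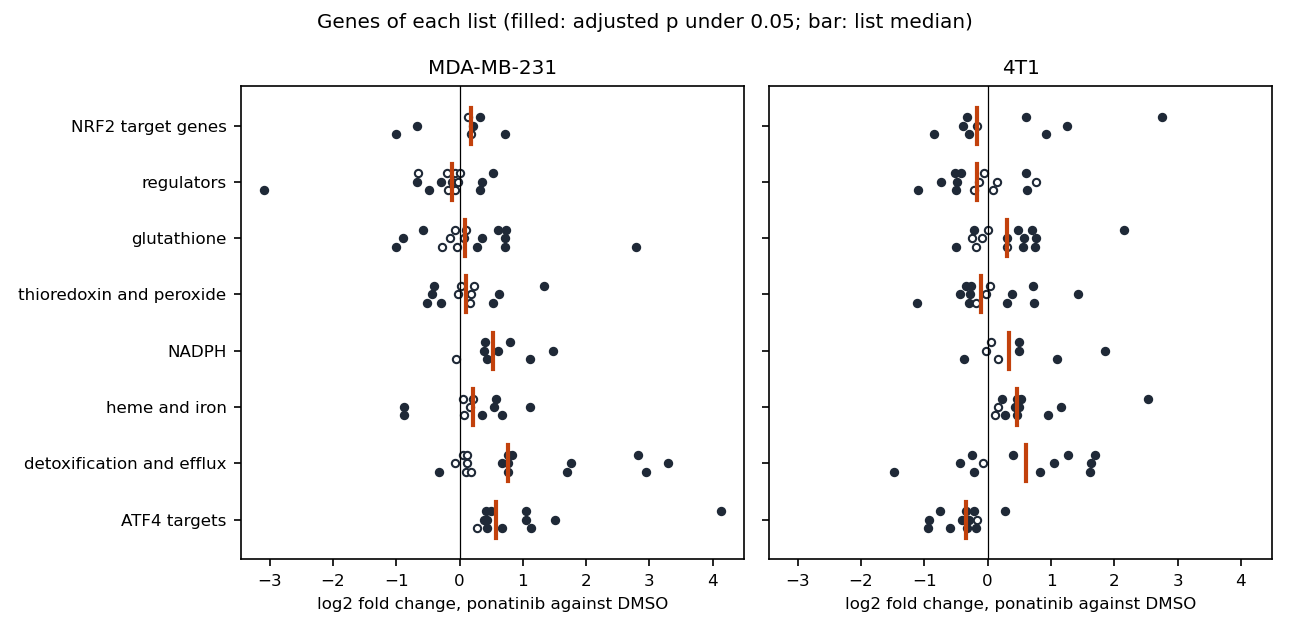
Log2 fold changes of ponatinib against DMSO for the genes of each list with MDA-MB-231 on the left and 4T1 on the right; each point is a gene, filled where the adjusted p was under 0.05, and the orange bar is the list median. NADPH and detoxification medians lie right of 0 in both lines, and the ATF4 list lies right of 0 in MDA-MB-231 (0.58) and left of it in 4T1 (-0.33).

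The genes closest in pattern to *HMOX1* and *NQO1* were taken over the 12482 genes of the interaction fit that are not members. The measure was the root mean square difference of log2 CPM centred within each line over the 12 libraries. That fit filtered all libraries together, so it also holds genes without reads in the human line, such as *TXNIP*. Closest to *HMOX1* were *RARG* (0.0857), *MTMR14* (0.0862), *POR* (0.0873), *PPME1* (0.0883) and *SLC39A11* (0.0885), where the median over all genes was 0.416. Closest to *NQO1* were *PEPD* (0.0841), *VAC14* (0.0871), *FBXW5* (0.0894), *TRAPPC2L* (0.091) and *APEH* (0.0928), with a median of 0.456. None of these 10 is on the other NRF2 lists, and members could not appear among them. *POR*, the reductase that passes electrons to heme oxygenase and to cytochrome P450 enzymes, had a log2 fold change of 0.66 in the human line and -0.41 in the mouse line.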

How the data were processed

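RNA-seq was done on 3 libraries for each line and treatment (24 h, DMSO or 1 μM ponatinib), grouped by their labels. The deposited files hold raw counts of reads per gene, which the authors made by removing adapter and poly-N reads, aligning to hg38 or GRCm39 with HISAT2 and counting with HTSeq; versions, annotation, strand setting and the handling of ambiguous reads are not given in the sources used here. Of the 63677 human and 47729 mouse identifiers, 81.9% and 91.1% matched GENCODE v44 and vM39, holding 99.3% and 99.8% of the counts. Counts were tested with edgeR 4.0.16 under R 4.3.3 for each line, after filterByExpr and TMM scaling, by the quasi-likelihood test with Benjamini-Hochberg adjustment, and for the line by treatment interaction over shared symbols; the steps were tested on simulated data. CPM and RPKM (per kilobase of merged exons) were computed from the counts. The total per library limits the precision of low genes.

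The members and lists were chosen with earlier results of these data known, so their counts are descriptions. The named genes are all 9 members; NFE2L2, KEAP1, BACH1, MAFG and SQSTM1; from each other list and line up to 4 genes with the largest absolute log2 fold change among those called and reaching 10 CPM; and the 5 nearest patterns to HMOX1 and to NQO1. The values of 1 further gene of these lists are not reported here. Genes named beyond these (MAFK, NFE2L3, SYVN1, Cul3 in 4T1, and genes with overlapping spans) were chosen after their values were seen; cell type markers (EPCAM, CDH1, KRT8, KRT18, KRT19, VIM, ESR1, PGR, ERBB2, PTPRC, CD68, PECAM1, CDH5, COL1A1, PDGFRB) were a list of their own. Replicates differed beyond sampling noise, with a chi-square of 3.08 to 17.4 per gene. Deviations of same-numbered DMSO and ponatinib libraries from their group means correlated at 0.498, 0.175 and 0.218 for MDA-MB-231, and at 0.278, 0.185 and 0.153 for 4T1. Each is over 0.1, but some differently numbered pairs correlated as much (up to 0.274 and 0.218). The data alone therefore do not settle whether a shared number marks a pairing. The main fits have no block, and the replicate block was an alternative, given beside a result where it changes the call. The others were DESeq2 1.42.0, its size factors, total counts, a minimum of 10 counts in every library, no filter, scaling from each line's own table, and each replicate left out.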

Additional observations from a re-analysis of the deposited data

Results flagged for a closer look

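Of the 9 NRF2 target genes, 5 differed between the lines by edgeR's test of the interaction (adjusted p under 0.05), and of the 15 regulators 9 did; values are the log2 fold change in 4T1 minus that in MDA-MB-231. Among the NRF2 target genes these were *GCLM* (2.17, adjusted p = 2.81e-10), *HMOX1* (-1.07, 5.66e-07), *SLC7A11* (-1.04, 7.64e-06), *TXNRD1* (-0.73, 0.000482) and *NQO1* (0.63, 0.00301). *GCLM*, *HMOX1* and *TXNRD1* were called in opposite directions in the 2 lines, *NQO1* rose in both, and *SLC7A11* was called in 4T1 alone. Among the regulators they were *MAFF* (1.92, 2.35e-10), *SQSTM1* (-1.12, 2.13e-07), *NFE2L3* (0.98, 0.0088), *SYVN1* (-0.93, 1.81e-05), *BTRC* (0.75, 0.000228), *BACH1* (-0.58, 0.031), *KEAP1* (0.53, 0.00209), *NFE2L1* (-0.51, 0.00128) and *MAFG* (0.48, 0.000741). The same test also called 36 of 64 genes of the 5 lists of known targets and partner genes and 12 of 12 genes of the ATF4 list. Of all 12491 genes in this test, 41.9% were called. The lines also differ in species, gene models and DMSO levels, which cannot be told apart from the response.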

How the results depend on the processing

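Of 1379 alternative values of 104 fold changes and differences, 1315 kept their direction and their side of the threshold, 21 lost and 20 gained a call, and 23 changed sign. The sign changes were in values that had not been called. *BACH1* in MDA-MB-231 became 0.08 under total counts, 0.01 with at least 10 counts in every library and 0.02 to 0.09 (over all, -0.16 to 0.09) when single replicates were left out. *KEAP1* in MDA-MB-231 was 0.00 with DESeq2 or its size factors, -0.03 without a filter and -0.04 to 0.05 with a replicate left out. *NFE2L2* was 0.02 under total counts and -0.21 to 0.03 with a replicate left out in MDA-MB-231, and *Nfe2l2* 0.05 under total counts in 4T1; their difference became 0.04 under total counts, 0.01 with each line's own scaling and -0.16 to 0.07 with a replicate left out. The difference of *ALDH3A1* was -2.66 without MDA-MB-231 DMSO replicate 1, which holds its only control reads (-2.66 to 1.62 over all replicates left out). *NQO1* in MDA-MB-231 was also lost without a filter (0.19). The *GCLC* difference passed in 13 of 19 alternatives. Of 451 alternative counts, 23 moved by over 1.5 times. Members higher in MDA-MB-231 numbered 1 to 2 with a replicate left out, 1 without DMSO replicate 3 or ponatinib replicate 2. Under total counts, 5 regulators were higher and 7 genes of the 5 lists of known targets and partner genes lower in 4T1, where the median of all genes moved to 0.12. With the replicate block, 8 members differed between the lines, where 3115 and 3367 of all 12491 genes were called higher and lower. Beyond the calls named with it above, the block changed none of the named genes. Low counts limit *ALDH3A1* in MDA-MB-231 and *Nqo1* in 4T1. The cause of the other changes was not tested.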
